A study of Mus musculus with 10 samples.

Results

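The genes described here are 44 genes of the cell division cycle: 24 genes of DNA replication and S phase, 14 genes of mitosis, and 6 genes of the D-type cyclins and the Cip/Kip inhibitors of cyclin-dependent kinases. They were taken by symbol from a fixed list, out of 26264 genes with a deposited level, and all 44 were found. Their transcripts were measured in cells carrying the endothelial surface protein CD31, sorted from the brains of C57BL6 mice. For 1 month the mice ate PLX5622 diet (1200 ppm) or control diet, and each diet holds 5 libraries, 3 labelled male and 2 labelled female. PLX5622 inhibits CSF1R, the receptor that microglia need for survival, and the study asked what the loss of these cells does to brain vessels. The age of the mice is not given in the labels. The titles name the replicates as biological.

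Cells that enter the cycle first make D-type cyclins, which release E2F factors from the RB proteins and so switch on the genes for DNA synthesis. The MCM helicase is then loaded at origins, and replication runs with PCNA as the clamp that holds the polymerases on DNA. Mitotic genes, which the DREAM and MuvB complexes regulate, follow in G2, while Cip/Kip inhibitors hold cyclin-dependent kinases back in resting cells. Adult brain endothelium is known as a largely resting tissue, and microglia are known to divide and to repopulate after depletion.

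Whole reads recovered from the deposited values numbered 26.4M to 61.5M per library (M, mega), around a median of 31.2M, and the deepest library was control male 2. The 5 endothelial markers Cldn5, Pecam1, Cdh5, Flt1 and Slco1a4 summed to 12754 to 14905 TPM on PLX5622 and 14377 to 15213 TPM on control diet. TPM is a level per unit of gene length, scaled to the same total in every library. Summed over the libraries of a diet, Csf1r had 33 reads on PLX5622 and 2775 on control diet, Cx3cr1 had 0 and 840, and P2ry12 had 46 and 725. Tmem119 had 5 reads on PLX5622 and 436 on control diet, C1qa had 2 and 865, and C1qb had 8 and 1099. These 6 microglial genes did not reach 1 TPM in enough libraries for the limma test, and voom on recovered reads gave them adjusted p from 0.233 (Tmem119) to 0.552 (C1qb). Control female 1 stood apart from the other control libraries, with Csf1r at 0.0689 TPM, against 6.78 to 20.2 TPM in the other 4 control libraries and 0 to 0.461 TPM in the 5 PLX5622 libraries.

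The 3 classes differed widely in level. Of the 44 genes, 32 passed the filter for testing, which asked for 5 or more libraries of the 10 at a TPM of 1 or above: 21 of 24 S phase genes, 5 of 14 mitotic genes and all 6 cyclin D and Cip/Kip genes. Mean levels over the 10 libraries ran from 0.222 to 578 TPM among S phase genes, with a median of 7.23 TPM. Among mitotic genes they ran from 0.0415 to 9.78 TPM, with a median of 0.507 TPM. Cyclin D and Cip/Kip genes stood at 14.8 to 1208 TPM, with a median of 124 TPM. The 3 S phase genes that missed the filter were Mcm10, Gins2 and E2f1, and the 9 mitotic genes were Mki67, Top2a, Cdk1, Ccnb1, Bub1, Birc5, Aurkb, Cenpf and Tpx2. Of these 12, the 8 mitotic genes other than Top2a, and Mcm10 and E2f1, did not reach 1 TPM in any library. Within the tested genes, the coefficient of variation over the 10 libraries had a median of 14.1% for S phase genes, 29.3% for mitotic genes and 10.8% for cyclin D and Cip/Kip genes.

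**Figure D1:**
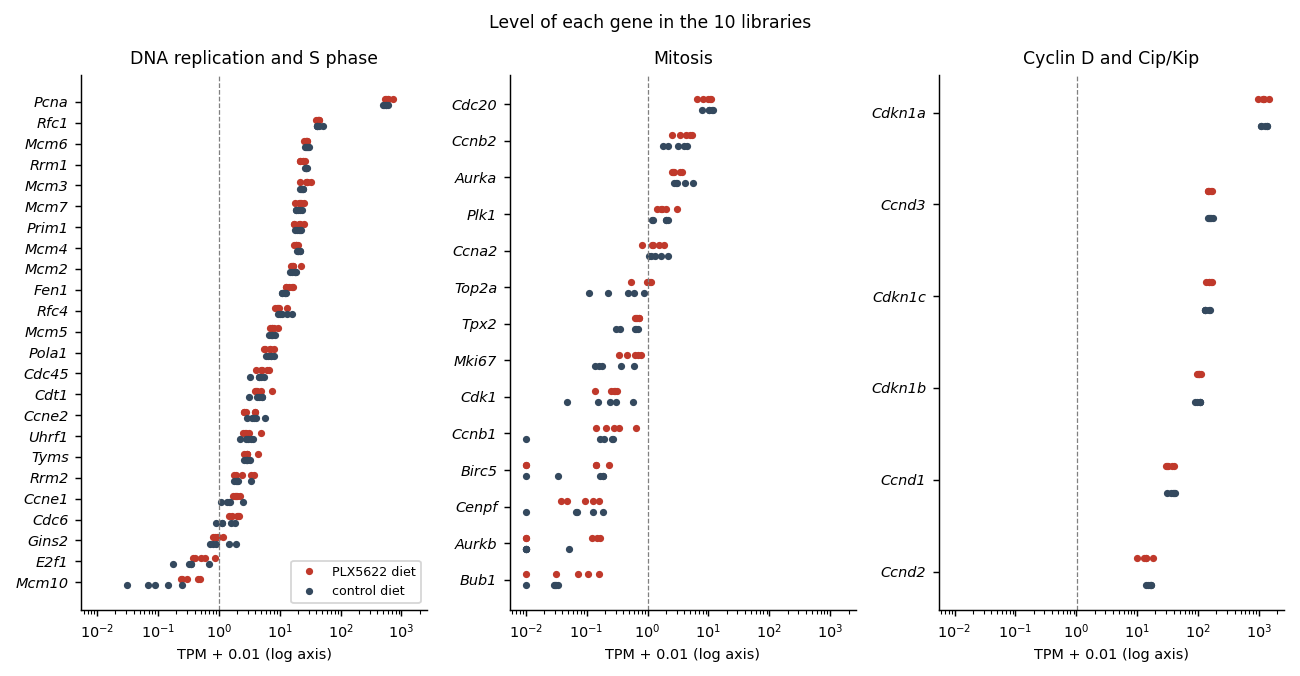
Level of each of the 44 genes in the 10 libraries, in TPM on a log axis (a small constant is added so that values of 0 show at the left), with PLX5622 libraries in red above control libraries in blue and a dashed line at 1 TPM. Cdkn1a and Pcna stand highest at means of 1208 and 578 TPM, and 8 of the 14 mitotic genes stay left of the line in every library.

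The cyclin-dependent kinase inhibitor Cdkn1a (p21) held the highest level of all 44 genes, at the 99.2 percentile of mean TPM among the 12751 genes tested. Pcna, the sliding clamp, stood at the 98.0 percentile. Ccnd3, Cdkn1c (p57) and Cdkn1b (p27) stood at the 91.2, 90.4 and 85.7 percentiles. The helicase subunits Mcm2 to Mcm7 lay at 7.66 to 27.7 TPM on average, with Mcm6 the highest and Mcm5 the lowest. Neighbours in this order lie close: Mcm6 ranged from 25.4 to 30.1 TPM over the 10 libraries and Mcm3 from 21.1 to 32.1 TPM, so their ranges overlap. Cdc20, the activator of the anaphase-promoting complex, was the highest mitotic gene at the 31.0 percentile.

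None of the 32 tested genes passed the test between the diets. In limma on log2(TPM + 1), with sex in the model and Benjamini-Hochberg adjustment over 12751 genes, 0 of 32 were called at an adjusted p under 0.05, and 17 of all tested genes (0.133%) were. Voom on recovered reads, which tested 38 of the 44 genes, also called 0 of them, and it called 0.147% of the genes it tested. The authors' deposited table gave 0 of 44 genes an adjusted p under 0.05, where 0.596% of its genes had one. The smallest adjusted p among the 32 was 0.387, for Rrm1. At an unadjusted p under 0.05 stood 4 of 32 genes (12.5%), against 8.31% of all tested genes. These were Cdc6, Fen1 and Mcm3, with higher means on PLX5622 (3.13% of all tested genes), and Rrm1, with a lower one (5.18% of all tested genes). At the same cut, voom held 6 of 38 genes, those 4 with Mki67 and Top2a, against 7.75% of its genes. The authors' deposited table held 7 of 44, those 6 with Mcm10, against 6.33% of its genes.

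Log2 fold changes of TPM + 1, given throughout as PLX5622 over control, lay above 0 for 13 and below 0 for 8 of the 21 tested S phase genes, with a median of 0.06. For the 5 mitotic genes they lay above 0 for 2 and below 0 for 3, with a median of -0.08. For the 6 cyclin D and Cip/Kip genes they lay above 0 for 2 and below 0 for 4, with a median of -0.04. Over all tested genes 44.3% lay above 0 and the median was -0.02. With voom on genes of at least 10 mean reads, a setting added after the data were seen, 9 mitotic genes could be tested and their median was 0.22, so the sign of the mitotic median turned. The 95% confidence interval of the fold change stayed within 1.5-fold either way for 29 of the 32 genes and ran past it for Cdc6, Ccne2 and Ccnb2. The scale of log2(TPM + 1) narrows the intervals of low genes, and with voom on recovered reads the interval stayed within 1.5-fold for 21 of the same 32 genes and ran past it for 11, among them Plk1, Ccne1, Rrm2, Cdc45, Cdt1, Rfc4, Ccna2 and Aurka. In sorted bulk libraries, fewer cells of a type and less RNA per cell cannot be told apart, for these genes and for the microglial markers alike.

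**Figure D2:**
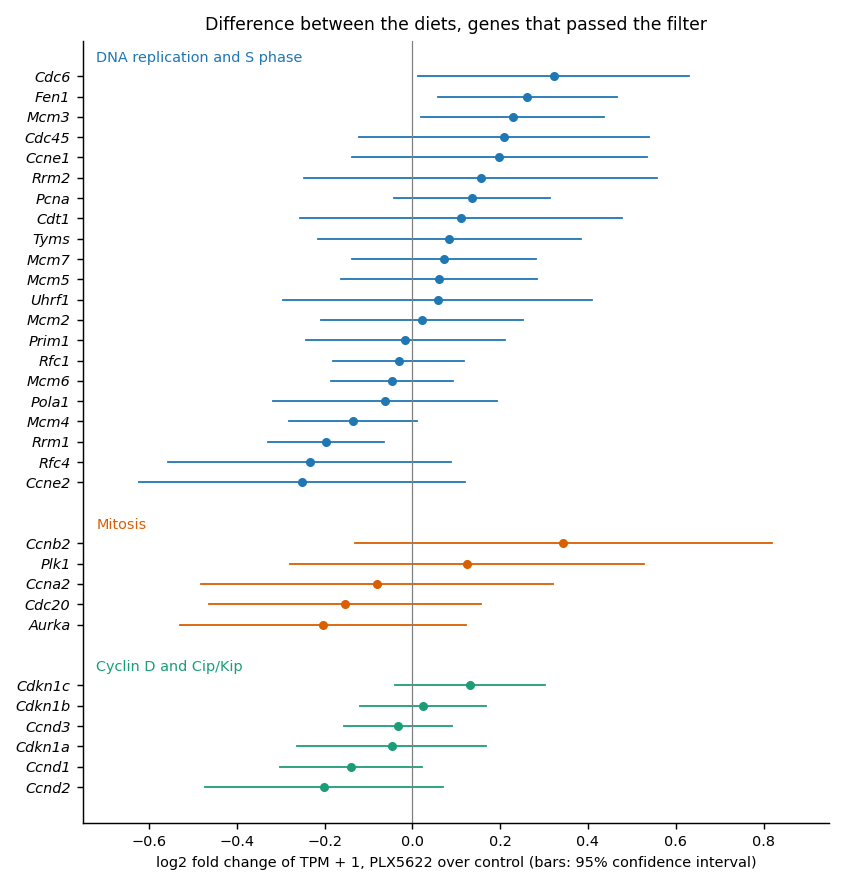
Log2 fold change of TPM + 1 (PLX5622 over control, x axis) of the 32 genes that passed the filter, by class, with points for the limma estimate and bars for its 95% confidence interval. Of these, the interval of Cdc6, Fen1, Mcm3 and Rrm1 leaves out 0, and no gene was called after adjustment.

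Rrm1, the large subunit of ribonucleotide reductase that supplies deoxynucleotides, was the only tested gene of the 32 whose diets did not overlap, where 1.8% of all tested genes did not. It stood at 24.5, 24.3 and 25.9 TPM in PLX5622 males and 21.8 and 21.8 TPM in PLX5622 females, against 28.1, 27.3 and 26.9 TPM in control males and 26.4 and 27.2 TPM in control females. All 5 PLX5622 libraries lay below all 5 control libraries, and the PLX5622 females were the lowest. The means were 23.6 ± 1.81 TPM on PLX5622 and 27.2 ± 0.622 TPM on control diet (SD, n = 5 each). The log2 fold change was -0.20 ± 0.06 (SE), with a limma p of 0.00705 before adjustment and 0.387 after it. Its small subunit Rrm2, which is made in S phase, averaged 2.63 ± 0.913 TPM on PLX5622 and 2.22 ± 0.647 TPM on control diet, with a log2 fold change of 0.16 and an interval from -0.25 to 0.56.

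Fen1 encodes the flap endonuclease that trims Okazaki fragments. Its levels were 14.3, 12.6 and 16.0 TPM in PLX5622 males and 12.9 and 16.4 TPM in PLX5622 females, against 12.4, 12.7 and 12.2 TPM in control males and 10.8 and 11.1 TPM in control females. PLX5622 male 2 lay below control male 2, and the other 4 PLX5622 libraries lay above every control library. The means were 14.4 ± 1.74 TPM on PLX5622 and 11.8 ± 0.845 TPM on control diet (SD, n = 5 each), with a log2 fold change of 0.26 ± 0.09 (SE) and a limma adjusted p of 0.437. The library kit does not mark strand, and exons of Fen1 overlap those of 2 genes on the other strand, so their reads cannot be told apart there. The overlap is 1909 bases with the antisense transcript Gm10143, which has no deposited level, and 75 bases with Tmem258.

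Mcm3, a subunit of the MCM helicase that unwinds DNA at the fork, stood at 27.5, 27.8 and 32.1 TPM in PLX5622 males and 28.0 and 21.1 TPM in PLX5622 females. In control males it stood at 22.0, 23.4 and 21.6 TPM and in control females at 24.1 and 23.9 TPM. PLX5622 female 2 held the lowest value of the 10 libraries, and the other 4 PLX5622 libraries lay above every control library. The means were 27.3 ± 3.94 TPM on PLX5622 and 23.0 ± 1.13 TPM on control diet (SD, n = 5 each), and the log2 fold change was 0.23 ± 0.10 (SE) with a limma adjusted p of 0.56. Within males the log2 fold change was 0.37 and within females 0.02, and the interaction of sex and diet had an unadjusted limma p of 0.0764. The other helicase subunits lay on both sides of 0, with log2 fold changes of 0.02 for Mcm2, -0.13 for Mcm4, 0.06 for Mcm5, -0.05 for Mcm6 and 0.07 for Mcm7. Their diets overlapped in each case. Exons of Mcm7 overlap those of Ap4m1 and Cops6 on the other strand, and the microRNA genes Mir25 and Mir93 lie within it. Whether reads in these shared stretches were counted for Mcm7 or left out was not tested.

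Cdc6 loads the helicase at origins. It stood at 2.12, 2.09 and 1.97 TPM in PLX5622 males and 1.65 and 1.46 TPM in PLX5622 females, against 1.10, 1.56 and 1.85 TPM in control males and 1.12 and 0.88 TPM in control females. Within each sex every PLX5622 library lay above every control library, and across the sexes the diets overlapped. The means were 1.86 ± 0.289 TPM on PLX5622 and 1.30 ± 0.394 TPM on control diet (SD, n = 5 each). Its log2 fold change, 0.32 ± 0.14 (SE), was the highest of the tested S phase genes, with a limma adjusted p of 0.578. The other origin factors were Cdt1, a partner of Cdc6, at a log2 fold change of 0.11, and Cdc45, which activates the loaded helicase, at 0.21, with limma adjusted p of 0.935 and 0.791. Exons of Cdc45 overlap those of Ufd1.

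Promoters of Mcm3 and Cdc6 are shown because E2F factors are known to drive both genes and both differed at an unadjusted p under 0.05. They are taken from RefSeq on GRCm38.p6 and span 300 bases around the gene start, at chr1:20820263-20820562 on the minus strand for Mcm3 and chr11:98907901-98908200 on the plus strand for Cdc6. Capitals mark E2F letters (TTTCCCGC, TTTCGCGC, TTTGCCGC or TTTGGCGC on either strand) and CCAAT on either strand.
Mcm3: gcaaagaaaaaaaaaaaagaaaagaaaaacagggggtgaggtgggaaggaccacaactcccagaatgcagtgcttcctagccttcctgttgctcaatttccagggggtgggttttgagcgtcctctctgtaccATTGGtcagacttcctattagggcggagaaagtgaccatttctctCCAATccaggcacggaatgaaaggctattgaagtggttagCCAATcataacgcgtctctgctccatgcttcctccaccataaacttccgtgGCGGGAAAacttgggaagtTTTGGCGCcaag
Cdc6: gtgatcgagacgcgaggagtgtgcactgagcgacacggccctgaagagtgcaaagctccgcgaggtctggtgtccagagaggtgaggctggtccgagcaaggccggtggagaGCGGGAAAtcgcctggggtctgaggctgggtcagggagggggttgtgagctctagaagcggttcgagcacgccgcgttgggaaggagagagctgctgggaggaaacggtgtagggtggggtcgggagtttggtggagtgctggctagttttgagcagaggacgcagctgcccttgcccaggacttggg
Mcm3 held 2 E2F matches, 19 and 38 bases after the start, and 3 CCAAT matches before it, while Cdc6 held 1 E2F match 138 bases before the start. Fen1 and Rrm1, which also had an unadjusted limma p under 0.05, held 0 E2F matches in their listed promoters. Promoters were listed for 35 of the 44 genes. E2F letters stood in 8 of 21 S phase promoters (38.1%) and 1 of 11 mitotic promoters (9.09%, Cdk1), against 2.6% of all 27025 gene promoters of the same length. A match describes the letters only and says nothing of binding.

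**Figure D3:**
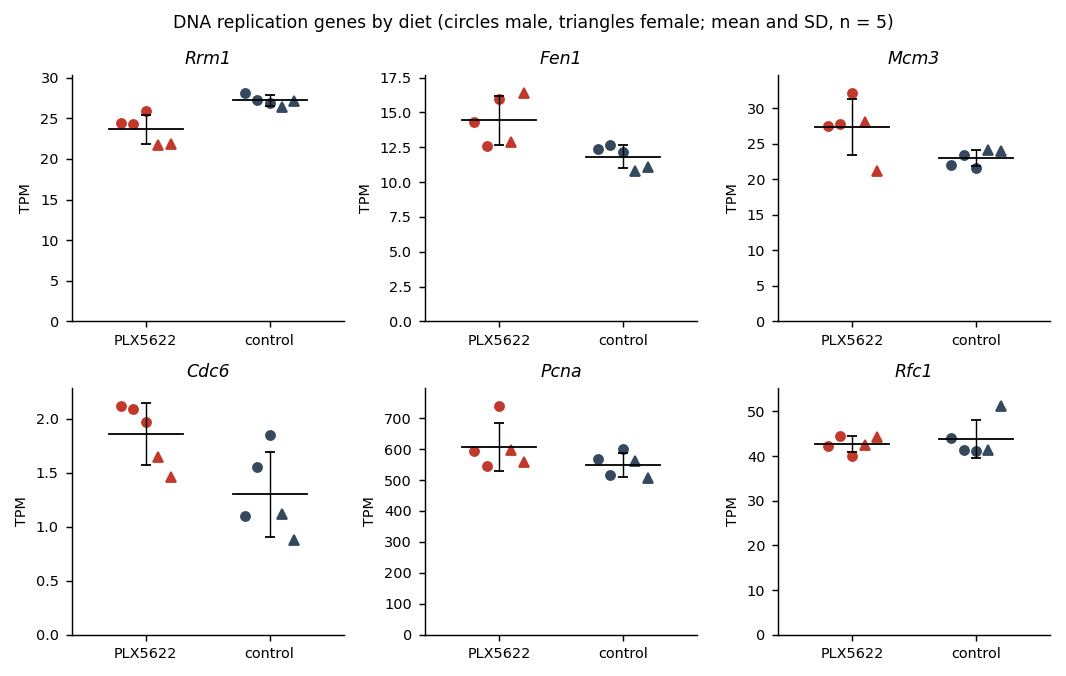
Level in TPM (y axis, from 0) of 6 replication genes in each library by diet, with circles for males, triangles for females, and the mean and SD of 5 libraries. All 5 PLX5622 libraries of Rrm1 lie below the control libraries, at means of 23.6 and 27.2 TPM, and the diets overlap for the other 5 genes.

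Pcna levels were 593, 544 and 739 TPM in PLX5622 males and 597 and 559 TPM in PLX5622 females. The control males stood at 567, 515 and 600 TPM and the control females at 561 and 505 TPM. PLX5622 male 3 lay far above the other 9 libraries, which overlapped. The means were 606 ± 77.3 TPM on PLX5622 and 550 ± 39.2 TPM on control diet (SD, n = 5 each), with a log2 fold change of 0.14, an interval from -0.04 to 0.31 and a limma adjusted p of 0.732. The clamp loader subunit Rfc1 stood at 42.2, 44.4 and 40.1 TPM in PLX5622 males and 42.6 and 44.2 TPM in PLX5622 females, against 44.0, 41.4 and 41.1 TPM in control males and 41.3 and 51.2 TPM in control females. Its log2 fold change was -0.03, with an interval from -0.18 to 0.12 and a limma adjusted p of 0.961. Rfc4, a small subunit of the loader, had -0.23 with an interval from -0.56 to 0.09, and its exons overlap those of Eif4a2.

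The primase subunit Prim1 and the polymerase subunit Pola1, which start each DNA strand, had log2 fold changes of -0.02 and -0.06. Thymidylate synthase Tyms had 0.08, and Uhrf1, which carries DNA methylation through replication, had 0.06. The 2 cyclins E, partners of CDK2 at the start of S phase, lay on opposite sides of 0. Ccne1 had a log2 fold change of 0.20 with an interval from -0.14 to 0.53, and Ccne2 had -0.25 with an interval from -0.62 to 0.12, and its exons overlap those of Ints8. All 6 of these genes had overlapping diets, with Prim1 ranging from 17.1 to 24.6 TPM on PLX5622 and 18.1 to 22.7 TPM on control diet, and Ccne1 ranging from 1.72 to 2.24 TPM on PLX5622 and 1.09 to 2.46 TPM on control diet. The limma adjusted p of the 6 ran from 0.766 for Ccne2 to 0.985 for Prim1.

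The S phase genes below the filter were described by reads summed over the 5 libraries of a diet, scaled to the totals of 146.6M reads on PLX5622 and 193.4M on control diet, with an exact interval that covers counting error only. Mcm10, which keeps the fork's helicase active, had 0.445, 0.24 and 0.487 TPM in PLX5622 males and 0.23 and 0.285 TPM in PLX5622 females, against 0.0207, 0.0587 and 0.0795 TPM in control males and 0.135 and 0.237 TPM in control females. Control female 2 reached the level of the lowest PLX5622 libraries, and the other control libraries lay below all PLX5622 libraries. It had 67 reads on PLX5622 and 26 on control diet, a scaled ratio of 3.40 (2.13 to 5.57). The authors' deposited table gave it a log2 fold change of 1.72 with an adjusted p of 0.350. E2f1, a transcription factor of the RB pathway, had 86 reads on PLX5622 and 72 on control diet, a ratio of 1.58 (1.14 to 2.19). Gins2, part of the active helicase, had 49 and 74 reads, a ratio of 0.874 (0.596 to 1.27), and overlaps Gse1.

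Mitotic genes that passed the filter had means on both sides of the control level. Ccnb2, a cyclin B that drives entry into mitosis, stood at 3.42, 5.45 and 2.50 TPM in PLX5622 males and 4.30 and 5.04 TPM in PLX5622 females, against 3.17, 1.77 and 3.93 TPM in control males and 2.14 and 4.41 TPM in control females. The diets overlapped and both spread widely, at 4.14 ± 1.20 TPM on PLX5622 and 3.09 ± 1.13 TPM on control diet (SD, n = 5 each). The log2 fold change was 0.34, with an interval from -0.13 to 0.82 and a limma adjusted p of 0.747. Aurora kinase Aurka, which builds the spindle poles, stood at 2.61, 3.35 and 3.66 TPM in PLX5622 males and 2.53 and 2.74 TPM in PLX5622 females, against 3.06, 4.06 and 5.56 TPM in control males and 2.702 and 2.93 TPM in control females. Control male 3 was the highest and the rest overlapped, with a log2 fold change of -0.20 and a limma adjusted p of 0.799.

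Cdc20 was measured at 9.90, 10.5 and 8.21 TPM in PLX5622 males and 10.9 and 6.59 TPM in PLX5622 females, against 7.95, 11.9 and 11.2 TPM in control males and 10.2 and 10.3 TPM in control females. The diets overlapped, with a log2 fold change of -0.15 and an interval from -0.46 to 0.16. Exons of Cdc20 overlap those of Elovl1 on the other strand. Polo-like kinase Plk1 was measured at 3.02, 1.66 and 1.70 TPM in PLX5622 males and 1.39 and 2.03 TPM in PLX5622 females, against 1.99, 1.23 and 1.18 TPM in control males and 1.97 and 2.15 TPM in control females. PLX5622 male 1 was the highest, the rest overlapped, and the log2 fold change was 0.12 with a limma adjusted p of 0.932. Exons of Plk1 overlap those of the unclassified transcript Gm44985 on the other strand over 156 bases. Cyclin A2 (Ccna2), which serves both S phase and early mitosis, averaged 1.316 ± 0.385 TPM on PLX5622 and 1.45 ± 0.459 TPM on control diet (SD, n = 5 each), and its exons overlap those of Exosc9.

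Mki67 and Top2a, used widely as marks of dividing cells, had higher means on PLX5622 but did not pass the test in any setting. They were picked for full values after these were seen, as was Mcm10. Mki67, the antigen Ki-67 that coats mitotic chromosomes, stood at 0.457, 0.334 and 0.618 TPM in PLX5622 males and 0.757 and 0.690 TPM in PLX5622 females, against 0.356, 0.170 and 0.125 TPM in control males and 0.583 and 0.152 TPM in control females. The diets overlapped, since control female 1 lay above PLX5622 males 1 and 2 and control male 1 above PLX5622 male 2. The means were 0.571 ± 0.173 TPM on PLX5622 and 0.277 ± 0.194 TPM on control diet (SD, n = 5 each). There were 294 reads on PLX5622 and 177 on control diet, a scaled ratio of 2.19 (1.81 to 2.66 from counting error). Voom on recovered reads gave a log2 fold change of 1.28 ± 0.36 (SE), with an interval from 0.51 to 2.05, an unadjusted p of 0.0031 and an adjusted p of 0.292. Left out in turn, the 10 libraries gave 0.86 to 1.54, with adjusted p from 0.134 to 0.612.

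Top2a, the topoisomerase that untangles chromosomes in mitosis, stood at 1.13, 0.524 and 1.09 TPM in PLX5622 males and 0.992 and 0.960 TPM in PLX5622 females, against 0.578, 0.213 and 0.461 TPM in control males and 0.852 and 0.0978 TPM in control females. PLX5622 male 2 lay below control male 1 and control female 1, and the other 4 PLX5622 libraries lay above every control library. The means were 0.940 ± 0.243 TPM on PLX5622 and 0.440 ± 0.299 TPM on control diet (SD, n = 5 each), from 248 and 140 reads, a scaled ratio of 2.34 (1.89 to 2.90). Voom gave a log2 fold change of 1.50 ± 0.46 (SE), with an unadjusted p of 0.00553 and an adjusted p of 0.368. Without control female 2, the library with the fewest Top2a transcripts, it was 0.95, and without control female 1 it was 1.73. The authors' deposited table gave Mki67 a log2 fold change of 1.07 with an adjusted p of 0.350, and Top2a 1.12 with 0.411. Exons of Top2a overlap the small nucleolar RNA gene Gm23451 on the same strand over 122 bases.

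**Figure D4:**
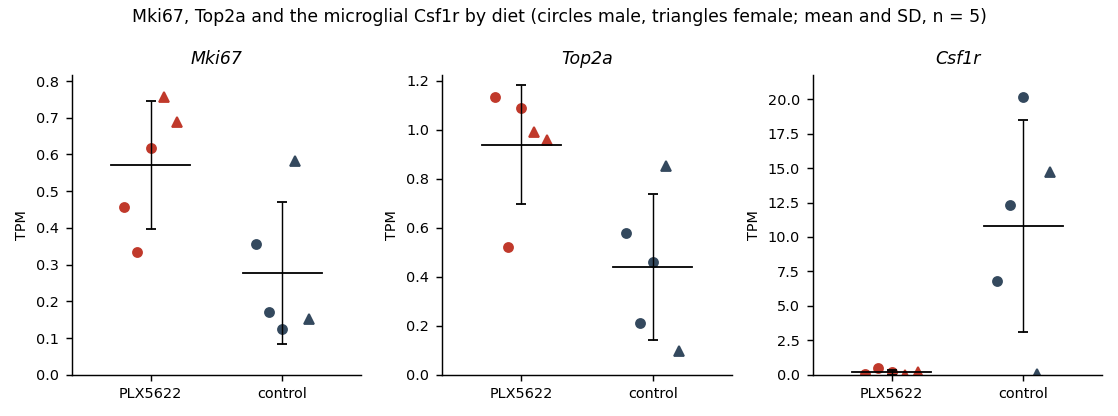
Level in TPM (y axis, from 0) of Mki67, Top2a and the microglial receptor gene Csf1r in each library by diet, with circles for males, triangles for females, and the mean and SD of 5 libraries. Control female 1 is the highest control library for Mki67 (0.583 TPM) and Top2a (0.852 TPM) and the lowest for Csf1r (0.0689 TPM).

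Control female 1, the control library almost without Csf1r, held the highest control levels of Mki67 and Top2a, and control female 2, with Csf1r at 14.7 TPM, held the lowest control level of Top2a. Control male 3 had the most Csf1r, 20.2 TPM, with the lowest control level of Mki67, 0.125 TPM, and Top2a at 0.461 TPM. In control female 1, Tpx2 and Cenpf were also the highest of the controls, while Ccnb2 (2.14 TPM) and Cdk1 (0.143 TPM) lay within the range of the other controls. Sums of the other marker lists overlapped between the diets, among them blood leukocytes at 2.01 to 11.2 TPM on PLX5622 and 0.709 to 11.6 TPM on control diet, and oligodendrocyte precursors at 6.82 to 12.5 TPM on PLX5622 and 8.02 to 14.96 TPM on control diet. Of the erythroid list only Alas2 had reads, at 41.7 to 116 TPM on PLX5622 and 34.2 to 84.5 TPM on control diet. All 4 globin genes were at 0 reads in every library, so the list gives no level for red cells. The part of these cell types in the Mki67 and Top2a levels was not tested.

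Promoters of Mki67 and Top2a are shown because both genes had higher means together and both belong to the mitotic class, whose promoters are known for a CHR element near CCAAT boxes. They come from RefSeq on GRCm38.p6 and lie on the minus strand, at chr7:135716330-135716629 and chr11:99024140-99024439. Capitals mark CHR letters (TTTGAA or TTCGAA) and CCAAT, each on either strand.
Mki67: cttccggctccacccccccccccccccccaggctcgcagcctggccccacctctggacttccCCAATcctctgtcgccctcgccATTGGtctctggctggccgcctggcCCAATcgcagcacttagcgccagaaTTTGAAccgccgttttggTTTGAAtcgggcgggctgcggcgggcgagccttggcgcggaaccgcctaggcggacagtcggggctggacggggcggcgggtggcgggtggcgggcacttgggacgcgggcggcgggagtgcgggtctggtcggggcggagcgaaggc
Top2a: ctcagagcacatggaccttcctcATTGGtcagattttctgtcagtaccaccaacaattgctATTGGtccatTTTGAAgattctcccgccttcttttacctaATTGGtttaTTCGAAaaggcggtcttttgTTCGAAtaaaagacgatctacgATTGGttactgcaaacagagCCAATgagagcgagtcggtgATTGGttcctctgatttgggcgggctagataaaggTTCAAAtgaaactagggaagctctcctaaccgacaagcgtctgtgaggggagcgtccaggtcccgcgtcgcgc
Mki67 held 2 CHR matches, 116 and 98 bases before the start, and 3 CCAAT matches further upstream. Top2a held 4 CHR and 6 CCAAT matches. Both kinds together stood in 9 of 11 mitotic promoters (81.8%) and 3 of 21 S phase promoters (14.3%), against 8.61% of all gene promoters. CHR letters alone stood in 21.7% of all gene promoters and CCAAT in 41.1%, so either alone is common. The promoters with both included those of Ccnb2 and Plk1, with limma log2 fold changes of 0.34 and 0.12, and of Aurka and Cdc20, with -0.20 and -0.15. A match says nothing of binding or of the levels on either diet.

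The other mitotic genes below the filter had few reads. Ccnb1, the main mitotic cyclin, had 37 reads on PLX5622 and 27 on control diet, a scaled ratio of 1.81 (1.07 to 3.09). PLX5622 female 1 alone held 16 of the 37. The spindle checkpoint kinase Bub1 had 14 and 5 reads, a ratio of 3.69 (1.26 to 13.1), and the chromosomal passenger kinase Aurkb had 8 and 1, a ratio of 10.6 (1.41 to 468). PLX5622 male 1 held 6 of the 14 Bub1 reads, and Aurkb had 0 reads in PLX5622 males 2 and 3. Tpx2, which brings Aurka to the spindle, had 146 and 139 reads, a ratio of 1.39 (1.09 to 1.76), and voom gave it a log2 fold change of 0.50 with an adjusted p of 0.773. Ratios did not all lie on the same side. The kinase Cdk1 had 53 reads on PLX5622 and 86 on control diet, of which control male 2 alone held 53, a ratio of 0.813 (0.566 to 1.16). Voom, which weighs the libraries one by one, gave Cdk1 a log2 fold change of 0.22 with an adjusted p of 0.971, so the sign differed between the pooled reads and the fit. Birc5 (survivin) had 17 and 27 reads, a ratio of 0.831 (0.425 to 1.58), and the kinetochore gene Cenpf had 47 and 51, a ratio of 1.22 (0.800 to 1.84). These intervals leave out the spread between libraries of a diet, so one that leaves out 1 does not show a difference between the diets. Limma with no filter gave Ccnb1, Bub1 and Aurkb adjusted p of 0.803, 0.822 and 0.703.

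**Figure D5:**
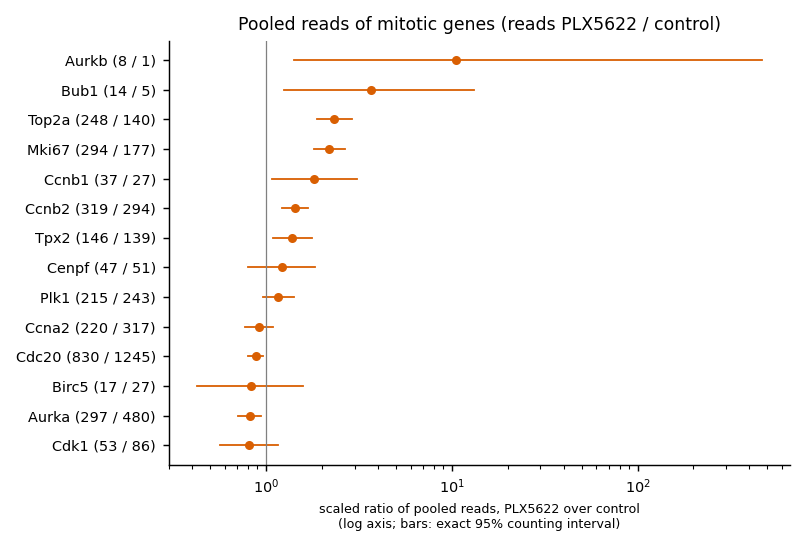
Scaled ratio of pooled reads (PLX5622 over control, log x axis) of the 14 mitotic genes, with the reads of each diet in brackets and exact 95% counting intervals that leave out the spread between libraries of a diet. Mki67 and Top2a lie at 2.19 and 2.34, and Cdk1, Aurka, Birc5, Cdc20 and Ccna2 lie left of 1.

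Cyclin D and Cip/Kip genes, the brakes and starters of G1, had the lowest median coefficient of variation of the 3 classes. Cdkn1a stood at 964, 1193 and 1163 TPM in PLX5622 males and 1184 and 1447 TPM in PLX5622 females, against 1085, 1250 and 1351 TPM in control males and 1102 and 1338 TPM in control females. The diets overlapped throughout, at 1190 ± 172 TPM on PLX5622 and 1225 ± 127 TPM on control diet (SD, n = 5 each), with a log2 fold change of -0.05 and an interval from -0.26 to 0.17. Cdkn1c stood at 152, 149 and 167 TPM in PLX5622 males and 133 and 161 TPM in PLX5622 females, against 130, 157 and 130 TPM in control males and 150 and 129 TPM in control females. Its diets overlapped, with a log2 fold change of 0.13 and a limma adjusted p of 0.728. Cdkn1b averaged 103 ± 5.82 TPM on PLX5622 and 101 ± 8.6 TPM on control diet (SD, n = 5 each).

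Ccnd3 was the highest D-type cyclin, at 147, 162 and 145 TPM in PLX5622 males and 153 and 167 TPM in PLX5622 females, against 153, 159 and 144 TPM in control males and 176 and 160 TPM in control females. Its diets overlapped, with a log2 fold change of -0.03 and an interval from -0.16 to 0.09. Ccnd1 was measured at 32.5, 30.1 and 30.4 TPM in PLX5622 males and 39.6 and 37.5 TPM in PLX5622 females, against 35.6, 40.3 and 30.9 TPM in control males and 39.4 and 41.7 TPM in control females. The diets overlapped, and the log2 fold change was -0.14 with a limma adjusted p of 0.688. Ccnd2 was measured at 13.87, 13.74 and 9.90 TPM in PLX5622 males and 18.46 and 13.05 TPM in PLX5622 females, against 13.84, 16.52 and 16.55 TPM in control males and 15.04 and 16.90 TPM in control females. Both the lowest and the highest value came from PLX5622 libraries, and the log2 fold change was -0.20 with a limma adjusted p of 0.743. On the other strand, exons of Ccnd1 overlap those of LTO1, exons of Ccnd3 those of Bysl, and exons of Ccnd2, Cdkn1a and Cdkn1c those of noncoding or unclassified transcripts.

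Other genes of the cycle gave no called gene either. Of 42 further replication genes, 36 were tested and limma called 0, with 23 log2 fold changes above 0, 13 below and a median of 0.03. At an unadjusted p under 0.05 stood 1 higher and 3 lower, where 3.13% of all tested genes were higher and 5.18% lower at that cut, which holds as the background of the other lists too. Gins3, of the active helicase, averaged 2.57 ± 0.674 TPM on PLX5622 and 4.15 ± 0.538 TPM on control diet, with a log2 fold change of -0.54 and a limma adjusted p of 0.283. The clamp loader subunit Rfc3 averaged 10.9 ± 2.78 TPM on PLX5622 and 14.4 ± 1.2 TPM on control diet, with -0.40 and an adjusted p of 0.387. Of 45 further mitotic genes, 31 were tested and limma called 0, with 19 above 0, 12 below and a median of 0.05, and 4 higher and 0 lower at an unadjusted p under 0.05. Ube2c, the ubiquitin enzyme of the anaphase-promoting complex, averaged 2.99 ± 0.682 TPM on PLX5622 and 1.69 ± 1.15 TPM on control diet, with 0.65 and a limma adjusted p of 0.417. Cks2, a small partner of the cyclin-dependent kinases, averaged 29.3 ± 5.21 TPM on PLX5622 and 22.2 ± 3.79 TPM on control diet, with 0.38 and a limma adjusted p of 0.459.

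Of 34 further cyclins, kinases, inhibitors and RB-E2F genes, 30 were tested and limma called 0, with 13 above 0, 17 below and a median of -0.05, and 0 higher and 1 lower at an unadjusted p under 0.05. E2f5, a repressive E2F, averaged 24.7 ± 1.48 TPM on PLX5622 and 29.3 ± 2.08 TPM on control diet, with a log2 fold change of -0.24 and a limma adjusted p of 0.382. The G1 kinase Cdk6 averaged 3.92 ± 0.838 TPM on PLX5622 and 2.94 ± 0.563 TPM on control diet, with 0.32 and an adjusted p of 0.622. Of 14 p53 target genes, which share Cdkn1a's regulator, 13 were tested and limma called 0, with 5 above 0, 8 below and a median of -0.02, and 0 higher and 2 lower at an unadjusted p under 0.05. The lowest unadjusted p among them belonged to Phlda3, at 12.2 ± 2.69 TPM on PLX5622 and 17.8 ± 4.09 TPM on control diet, with -0.50 and an adjusted p of 0.393, and to Ccng1, at 26.4 ± 2.15 TPM on PLX5622 and 30.7 ± 2.18 TPM on control diet, with -0.21 and an adjusted p of 0.418.

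The response to diet did not differ detectably between the sexes for any of the 32 genes. The interaction of sex and diet was called for 0 of 32 genes by limma and 0 of 32 by voom. Either fit also called 0 of all 12751 tested genes, so the count is not particular to these genes. In each fit 0 of the 32 had an unadjusted p under 0.05, against 2.45% of all tested genes in limma and 1.94% in voom. Prim1 came nearest, with log2 fold changes of -0.18 in males and 0.22 in females and an unadjusted limma p of 0.0587. Rrm1 had log2 fold changes of -0.14 in males and -0.29 in females, and Cdc6 had 0.30 in males and 0.36 in females. With 3 male and 2 female libraries a diet these estimates are wide.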

How the data were processed

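RNA-seq values of 10 libraries of sorted CD31+ mouse brain cells were used. Libraries were polyadenylated and not stranded, per the labels' protocols. Per the submitters' processing notes, the tools were STAR 2.7.10a (genome mm39), featureCounts from Subread 2.0.1, and DESeq2 1.32.0 under R 4.1.0. The deposited levels are the authors' TPM for 26264 genes. A deposited table from the authors' DESeq2 run lists 19474 genes with log2 fold changes (PLX5622 over control), p-values and adjusted p-values. The mean count and the test statistic in that deposited table were treated as scores. The sources used here do not give its model formula.

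Whole reads were recovered from TPM and the authors' deposited mean counts. Within 0.05 reads, 100.0% of these values came out whole. The authors' mean counts set the scale of each gene, so their match, within a relative error of 4.13e-05, is no separate check. The recovered reads give depths of 26.4M to 61.5M and the pooled ratios, whose intervals cover counting error only.

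Diets were compared with limma 3.58.1 (R 4.3.3) fitted to log2(TPM + 1) of the 12751 genes that reached a TPM of 1 in 5 or more libraries, with terms for sex and diet and a trended variance. The two-sided p-values were adjusted by Benjamini-Hochberg, and genes under 0.05 were called. On this scale a fold change understates that of low genes. After seeing the data, voom on the 14239 genes with 10 or more recovered reads on average, and a fit without a pair of libraries, were added. The other alternatives changed the pseudocount (0.1 and 5), scaling, filter, covariates and pairing, and left out each library in turn.

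The members and lists were chosen with earlier results of these data known. Values in every library were given for the 4 tested members of each class with the smallest unadjusted p and the 2 with the highest mean TPM. From each further list the 2 tested members with the smallest unadjusted p were named. Mki67, Top2a and Mcm10 were given full values after these were seen. The values of some marker genes are not reported here. Exon overlaps were read from GENCODE M21, by gene name only, since its build is not mm39. Promoters came from RefSeq on GRCm38.p6, and no position of the deposited data was used with them.

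On values simulated for the same 12751 genes, limma found 38% of the 50 genes given a 1.25-fold change, 64% for a change of 1.5-fold, 88% for 2-fold and 98% for 3-fold, beside 9 unchanged genes. These are folds of TPM + 1, with independent normal noise, so for low genes they stand for larger folds of TPM. The changed genes were drawn at random from all tested genes, so the rates are not those of the low members. All folds were planted in the same simulated data, and the adjusted threshold loosens as more genes change. The diet contrast called 17 of 12751 genes, so its threshold was stricter and these rates are likely too high for it. Other tools were Python 3.11.15, numpy 2.4.6, pandas 2.3.3, scipy 1.17.1 and matplotlib 3.10.9.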

Additional observations from a re-analysis of the deposited data

Results flagged for a closer look

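Over 88 sets of 5 libraries (44 genes on each diet), 8 held a library far from the other 4 by the gap to its neighbour relative to the range. Chance flags about 1 in 20 such sets where values are normally distributed, which low read counts are not. Mcm2 stood at 22.2 TPM in PLX5622 male 1, against 15.6 to 16.4 TPM in the other PLX5622 libraries. Pcna stood at 739 TPM in PLX5622 male 3, against 544 to 597 TPM in the others of that diet. Tyms stood at 4.44 TPM in PLX5622 female 1 (others 2.59 to 2.93 TPM) and Uhrf1 at 4.95 TPM in PLX5622 female 2 (others 2.50 to 3.16 TPM). Top2a stood at 0.524 TPM in PLX5622 male 2, below the 0.960 to 1.13 TPM of the others. On control diet, Rrm2 stood at 3.36 TPM in male 3 (others 1.76 to 2.08 TPM), Bub1 at 0 TPM in female 2 (others 0.0188 to 0.0241 TPM) and Aurkb at 0.0415 TPM in male 1, where the other 4 were at 0. The last pair rest on 5 reads and 1 read over the diet, and a single library with reads beside 4 at 0 is flagged whatever its value. The cause of these values was not tested.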

How the results depend on the processing

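Members called between the diets stayed at 0 in all 20 alternatives, and the interaction with sex at 0 in each alternative run for it; the smallest adjusted p of a tested member in any was 0.305, and 0.134 in voom with a library left out. Of the 32 tested genes, 20 kept their sign in all 20 alternatives. The count of all genes called, 17, was 7 with no filter, 5 to 16 without each library in turn, 2 without both control female 1 and PLX5622 male 2, and 11 with a replicate block. Deviations from the group mean correlated at 0.0309 to 0.19 between same-numbered libraries of the diets, so the numbers were not taken as pairs. With 2 female libraries a diet, both female pairs must give the same value, 0.157. The mitotic median, -0.08, was 0.22 in voom with at least 10 mean reads, where 4 more genes are tested, 0.08 with no filter and 0.04 without control female 2. Prim1 turned to 0.0012 with median-of-ratios scaling. Without control female 1 and PLX5622 male 2 together, Prim1 was 0.030, Uhrf1 -0.037 and Cdkn1b -0.0070. With each library left out, log2 fold changes that changed sign spanned -0.066 to 0.065 (Mcm2), -0.0099 to 0.10 (Mcm5), -0.021 to 0.19 (Cdt1), -0.025 to 0.13 (Tyms), -0.070 to 0.023 (Rfc1), -0.12 to 0.0020 (Pola1), -0.087 to 0.035 (Prim1), -0.069 to 0.12 (Uhrf1), -0.16 to 0.036 (Ccna2), -0.010 to 0.22 (Plk1), -0.12 to 0.019 (Cdkn1a) and -0.021 to 0.070 (Cdkn1b), and in voom -0.23 to 0.068 (Gins2) and -0.45 to 0.75 (Cdk1). In voom 13 of 38 genes changed sign so, among them Mcm6 (-0.059 to 0.0044) and Ccnd3 (-0.040 to 0.018). The cause of each shift was not tested.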
